A study of Homo sapiens with 4 samples.

Results

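The 9p21 locus on the short arm of chromosome 9 holds MTAP, CDKN2A and CDKN2B, and was followed here through the called regions of histone H3 acetylated at lysine 9 (H3K9ac) that overlap the 4-Mb block from 20 to 24 Mb (hg19). The block held 32 of the 26828 regions called in T98G cells with the control shRNA (shNT) and 45 of the 39303 regions called with the shRNA against RBBP4 (shRBBP4), 77 of 66131 in all. The starts examined were those of MTAP at 21802635, of CDKN2A at 21974826 (the p16INK4a transcript) and at 21994490 (the p14ARF transcript), and of CDKN2B at 22009312, each with 5 kb on either side. T98G is an established human glioblastoma cell line. The cells were at passage 4 and had been transduced with a lentivirus carrying the control or the RBBP4 shRNA, and chromatin bound by an H3K9ac antibody was sequenced (ChIP-seq). There was 1 H3K9ac library for each shRNA, so differences between them could not be set against a spread of replicates. The 2 input libraries of the series were not analysed here, nor was the level of RBBP4. The depth of the libraries is unknown, and region lists carry no markers by which the cell line itself could be checked.

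H3K9ac is a mark of nucleosomes that flank active promoters. RBBP4 binds histones as a subunit of chromatin complexes such as those of the histone deacetylases. CDKN2A encodes a pair of unrelated tumour suppressors from alternative first exons: p16INK4a inhibits CDK4 and CDK6 and so keeps the retinoblastoma protein active, and p14ARF inhibits MDM2 and so stabilises p53. CDKN2B encodes p15INK4b, a relative of p16INK4a that also inhibits CDK4 and CDK6. MTAP, the gene next to CDKN2A, recycles methylthioadenosine from polyamine synthesis and is often lost together with CDKN2A. The 9p21 locus is among the stretches most often deleted in glioblastoma, and the comparison asks where the mark was called along it and whether the 2 libraries differed there.

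The sequences just before the starts are shown because H3K9ac was called beside the starts of MTAP, p14ARF and CDKN2B but not beside that of p16INK4a. They are the 250 bases before each start in RefSeq, which had entries for all 3 genes on GRCh38.p14, a build other than that of the regions. They lie at chr9:21802386-21802635 on the plus strand for MTAP, and on the minus strand at chr9:21974858-21975107 and chr9:21995325-21995574 for CDKN2A and at chr9:22009306-22009555 for CDKN2B. These positions were not set against the hg19 regions, and the upstream CDKN2A start of that table need not be the p14ARF start used here. Capitals mark CG dinucleotides, and each sequence runs 5′ to 3′ towards the gene.
MTAP: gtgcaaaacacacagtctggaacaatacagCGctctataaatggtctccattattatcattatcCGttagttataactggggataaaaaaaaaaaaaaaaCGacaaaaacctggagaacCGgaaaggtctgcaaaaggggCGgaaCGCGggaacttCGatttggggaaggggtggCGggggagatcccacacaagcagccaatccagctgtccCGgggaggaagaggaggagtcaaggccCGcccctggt
CDKN2A, p16INK4a start: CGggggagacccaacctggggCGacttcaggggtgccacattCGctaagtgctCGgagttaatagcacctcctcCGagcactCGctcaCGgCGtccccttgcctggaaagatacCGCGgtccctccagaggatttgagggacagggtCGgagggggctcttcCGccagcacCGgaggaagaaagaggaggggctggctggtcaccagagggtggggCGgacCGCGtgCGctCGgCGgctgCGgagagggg
CDKN2A, upstream start: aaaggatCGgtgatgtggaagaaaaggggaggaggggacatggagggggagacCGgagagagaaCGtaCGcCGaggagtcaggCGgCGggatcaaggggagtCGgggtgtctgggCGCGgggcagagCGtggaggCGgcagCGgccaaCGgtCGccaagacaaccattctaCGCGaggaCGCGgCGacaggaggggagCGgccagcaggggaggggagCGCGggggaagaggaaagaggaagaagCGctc
CDKN2B: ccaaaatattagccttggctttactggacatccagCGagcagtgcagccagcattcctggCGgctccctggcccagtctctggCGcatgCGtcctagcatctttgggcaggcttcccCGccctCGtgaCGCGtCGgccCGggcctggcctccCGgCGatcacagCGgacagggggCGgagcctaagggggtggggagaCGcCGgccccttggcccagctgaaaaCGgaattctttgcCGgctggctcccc

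The CG count before the p16INK4a start lay within the range of the other 3 windows. It held 20 CG dinucleotides, against 24 before the upstream CDKN2A start, 18 before CDKN2B and 11 before MTAP. The median over 35116 RefSeq promoter windows of the same length was 11, and 32.4% of them held at least 20. GC content was 66.8% before both CDKN2A starts, 66.4% before CDKN2B and 50% before MTAP, with a median of 58.0% over all windows. The GC box bound by Sp1-family factors (GGGCGG, or CCGCCC on the other strand) was found 2 times before MTAP, 2 times before CDKN2B, 1 time before the p16INK4a start and not before the upstream CDKN2A start. At least 1 such box stood in 42.6% of all windows. These are descriptions of letters and not of factor binding.

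H3K9ac regions lay within 5 kb of 3 of the 4 starts, and they were the same 3 starts in both libraries. These were MTAP, p14ARF and CDKN2B, while p16INK4a had none in either. Of all 10-kb windows of 9p (chromosome 9 below 47 Mb), 2.85% held a region in shNT and 3.77% in shRBBP4. Those windows are not promoters, and no complete set of hg19 promoters was at hand, so this background says little about starts as a class. No start lay inside a region: in both libraries the start base of MTAP, p14ARF and CDKN2B fell into a space between or beside regions. The lists give where regions were called and not how much sequence was recovered at any of the 4 starts. Copy number of the locus was not tested.

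**Figure D1:**
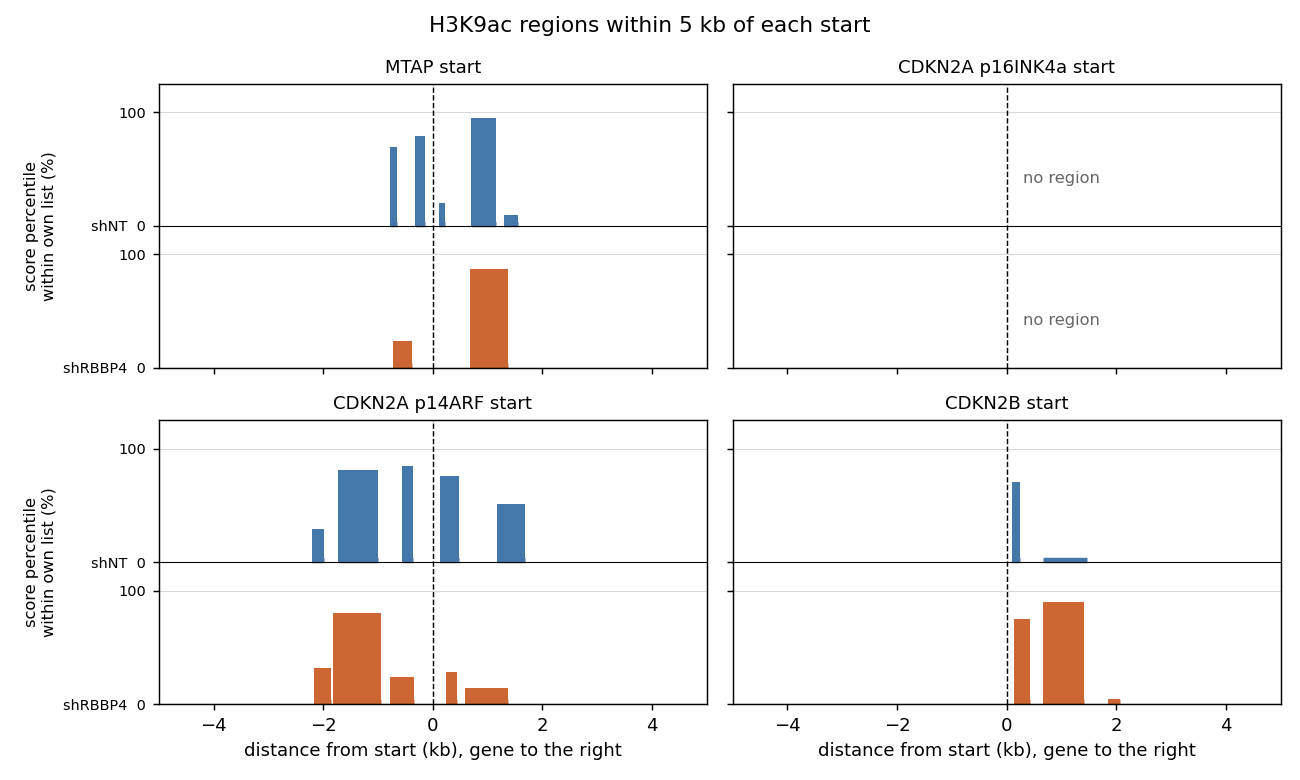
H3K9ac regions within 5 kb of the 4 starts, with distance from the start in kb on the x axis (upstream to the left, gene to the right) and, for each library, the percentile of the region's score within its own list on the y axis. Each bar is 1 region drawn to its width, and its base is drawn thick so that regions of very low percentile can be seen. Regions flank the MTAP and p14ARF starts, lie only on the gene side of the CDKN2B start, and are absent at the p16INK4a start.

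MTAP had H3K9ac on both sides of its start in both libraries, and more of it lay within the gene than before it. The shNT library had 5 regions there, covering 1144 bp, of which 297 bp lay upstream and 847 bp downstream. The shRBBP4 library had 2 regions covering 1038 bp, 348 bp upstream and 690 bp downstream. The covered lengths were thus close although the number of regions was not.

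In both libraries the highest-ranked MTAP region lay inside the gene, beginning 695 bp from the start in shNT and 682 bp in shRBBP4. In shNT it ran from 21803330 to 21803788 (459 bp) and stood at percentile 94.6 of all shNT scores. In shRBBP4 it ran from 21803317 to 21804006 (690 bp) and stood at percentile 86.6. The score is the authors' own value, of no stated scale, so it is used here only as a rank within its list, and a rank in a list of 26828 does not measure a change against a rank in a list of 39303. The shNT regions closest to the start, from 21802319 to 21802490 and from 21802744 to 21802866, overlapped no shRBBP4 region. They left 253 bp free around the start in shNT, against 1066 bp in shRBBP4.

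Of the 4 starts, p14ARF had the greatest length covered by H3K9ac regions in both libraries, but not the highest-ranked region. Its best percentiles were 84.8 in shNT and 80.3 in shRBBP4, against 94.6 and 86.6 at MTAP. Each library had 5 regions there, and every one of them overlapped a region of the other library. They covered 2024 bp in shNT and 2620 bp in shRBBP4. Most of it lay upstream of the start at 21994490, as read for CDKN2A. In shNT 1172 bp lay upstream and 852 bp downstream, and in shRBBP4 these lengths were 1637 and 983 bp. This split holds for that start only. The RefSeq window before the upstream CDKN2A start lies at 21995325 to 21995574 on GRCh38.p14, and the lengths were not counted from there. In the RefSeq order, 2 long noncoding RNA genes are listed between CDKN2A and CDKN2B: LOC124902130 and CDKN2B-AS1, also called ANRIL. ANRIL runs in the direction opposite to CDKN2A. The order does not give how far either extends, so either may also reach CDKN2B or lie across the regions to its right. H3K9ac that belongs to either cannot be told apart from that of p14ARF or CDKN2B.

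The widest region at p14ARF lay upstream of the start in both libraries. It ran from 21995483 to 21996219 (737 bp) in shNT and from 21995426 to 21996302 (877 bp) in shRBBP4, at percentiles 80.8 and 80.3. The other 4 regions ranked between percentiles 29.4 and 84.8 in shNT and between 13.9 and 32.0 in shRBBP4. The free space around the start measured 493 bp in shNT and 575 bp in shRBBP4.

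CDKN2B had H3K9ac only on the gene side of its start. The shNT library had 2 regions covering 946 bp and the shRBBP4 library 3 regions covering 1251 bp, and all of it lay downstream, within 2064 bp of the start. Upstream, no base was covered for the next 94.3 kb in shNT and 93.4 kb in shRBBP4. The region nearest to the start ended 109 bp from it in shNT and 138 bp in shRBBP4, at percentiles 70.3 and 75.0. The 2 libraries ranked the next one very differently. It ran from 22007843 to 22008645 in shNT (803 bp) and stood at percentile 0.229, near the foot of that list. Its counterpart from 22007901 to 22008644 in shRBBP4 (744 bp) stood at percentile 90.3.

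The p16INK4a start had no region within 5 kb, nor within 10 kb. The nearest region lay upstream, 18.0 kb away in shNT and 18.3 kb away in shRBBP4, and belonged to the p14ARF group. On the other side the nearest was that of MTAP, 170.6 kb away in shNT and 170.8 kb in shRBBP4. The start thus sat in a stretch of 188.6 kb, from 21804198 to 21992804, that held no region of either library. This stretch runs from just inside MTAP to the p14ARF regions, and the p16INK4a start lies 19.7 kb from that of p14ARF. Elsewhere on 9p, 37 of 397 stretches between neighbouring regions were at least as long. Most of the 397 are short spaces inside groups of regions, and of the 159 longer than 1 kb the same 37 make up 23.3%. Stretches longer than 100 kb held 91.6% of the length of all stretches elsewhere on 9p and 84.8% in the block. Neither the copy number of the stretch nor the strength of the mark below the calling threshold was tested.

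The 5-kb limit decided none of these calls. By the edge nearer to the start, the regions that counted lay at most 1983 bp from it, and the nearest that did not count lay at least 12.6 kb from the starts of MTAP, p14ARF and CDKN2B.

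Over the whole block, the 45 shRBBP4 regions stood against 32 of shNT, which gives a ratio of 1.41 (exact conditional 95% interval 0.874 to 2.29, counting error only). The ratio outside the block was 1.47 (1.44 to 1.49) over all chromosomes and 1.54 (1.41 to 1.68) over the rest of chromosome 9. Both lie within the interval of the block, which is too wide to show whether the block differed from either. Its regions covered 11.7 kb in shNT and 18.0 kb in shRBBP4, where the whole lists covered 7890 and 11917 kb. In lists of equal length, with the shRBBP4 list limited to its 26828 highest scores, the ratio in the block fell below 1, to 0.938 (0.550 to 1.59). The limit fell among 1048 regions of equal score, of which 630 were kept in file order, and the block held 30 shRBBP4 regions without those ties and 33 with all of them. Regions lie in groups and are not independent, so these intervals are too narrow.

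In the full lists, shRBBP4 regions outnumbered those of shNT in the rest of the block and not at the starts. Within 5 kb of the starts shNT had 12 regions and shRBBP4 10, a ratio of 0.833 (0.323 to 2.10). The lower shRBBP4 count came from MTAP alone, with 5 regions in shNT and 2 in shRBBP4. In the same order, p14ARF had 5 and 5 and CDKN2B 2 and 3. The rest of the block had 20 and 35, a ratio of 1.75 (0.983 to 3.20). The intervals overlap, and both include the ratio of 1.47 found outside the block over all chromosomes. The split was looked at after the values were known, and the difference between the ratios was not tested. Regions at the starts covered 4114 bp in shNT and 4909 bp in shRBBP4, which is 1.19 times as much, and covered 1.72 times as much in the rest of the block. The whole lists, of unequal length, covered 7890 kb in shNT and 11917 kb in shRBBP4. In lists of equal length, 4 shRBBP4 regions were left at the starts (5 with all ties), covering 2606 bp, while the 12 of shNT covered 4114 bp. The rest of the block then had 20 shNT and 26 shRBBP4 regions, a ratio of 1.3 (0.698 to 2.46), and shRBBP4 regions covered 1.52 times as much there. MTAP, p14ARF and CDKN2B each had at least 1 region in both libraries there too.

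Sharing between the libraries in the block was near that of the whole lists. Of the shNT regions, 26 of 32 overlapped an shRBBP4 region by at least 1 bp (81.2%, exact Clopper-Pearson interval 63.6 to 92.8), against 77.0% of all shNT regions. Of the shRBBP4 regions, 23 of 45 overlapped an shNT region (51.1%, 35.8 to 66.3), against 50.04% of all. No region of the other library lay within 1 kb for 2 of the 32 and 12 of the 45, where the whole lists gave 6.24% and 25.7%. Regions at or above percentile 90 numbered 3 of 32 in shNT and 5 of 45 in shRBBP4, against 10.1% and 9.75% over all regions, and each of these 8 had an overlapping counterpart. The median percentile was 29.4 in shNT and 45.3 in shRBBP4, against 51.2 and 48.9 over the whole lists.

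When neighbours at most 1 kb apart were merged, the regions of both libraries formed 21 clusters in the block. Regions of both libraries stood in 13 of them (61.9%, against 57.7% of all 18106 clusters), only shNT regions in 2 (9.52%, against 7.26%) and only shRBBP4 regions in 6 (28.6%, against 35.0%). The clusters at MTAP, p14ARF and CDKN2B spanned 2.34, 3.90 and 1.96 kb and were among the 13. Most others lay on the left of MTAP.

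**Figure D2:**
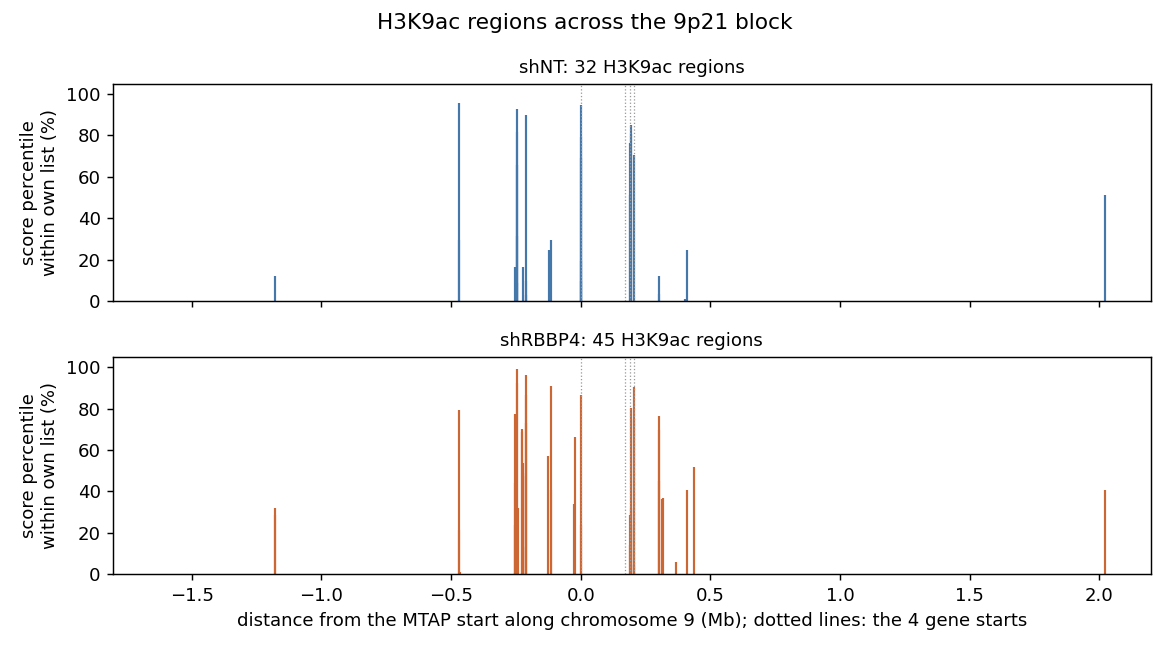
H3K9ac regions of shNT (above) and shRBBP4 (below) across the 4-Mb block, with distance from the MTAP start in Mb on the x axis and the percentile of the region's score within its own list on the y axis. Each line is 1 region and the dotted lines are the 4 starts. Of the regions, 30 of 32 and 42 of 45 lie in the 0.904-Mb core between the 2 longest empty stretches.

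The broadest and, in shRBBP4, highest-ranked H3K9ac of the block lay 243 kb to the left of the MTAP start and not at the named genes. This cluster, from 21554725 to 21559607, spanned 4.88 kb, of which 5 shNT regions covered 3897 bp and 3 shRBBP4 regions 4759 bp. Its region from 21557630 to 21559233 stood at percentile 99.0 in shRBBP4, and the overlapping shNT region from 21557594 to 21559420, the widest of that list in the block (1827 bp), at 65.6. Its other wide shRBBP4 region, from 21554725 to 21557568 (2844 bp), stood at percentile 92.6, and the highest shNT region it overlapped, from 21557225 to 21557522, at 92.9. In the RefSeq order of genes MTAP follows the MIR31 host gene and the type I interferon cluster. Without an hg19 annotation the cluster was not assigned to a gene.

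In 6 further clusters between this one and MTAP, or just to its left, shRBBP4 regions covered more bases than shNT regions. The cluster from 21549469 to 21551248 had 1 shNT region of 180 bp and 4 shRBBP4 regions covering 1058 bp, and that from 21578510 to 21580271 had 1 of 136 bp and 4 covering 1004 bp. The one from 21590539 to 21592510 had 3 regions in each library, covering 1009 bp in shNT and 1360 bp in shRBBP4, with best percentiles of 89.7 and 96.0. At 21688223 to 21688764 there were 1 shNT region of 123 bp at percentile 29.4 and 2 shRBBP4 regions, the better at percentile 90.6. The clusters from 21576527 to 21576986 and from 21778137 to 21778869 held 2 shRBBP4 regions each and none of shNT. Single small regions stood alone nearby, at 21677455 to 21677615 in shRBBP4 (161 bp) and at 21679442 to 21679564 in shNT (123 bp). The shRBBP4 list is the longer one throughout the genome, and 35.0% of all clusters held only shRBBP4 regions. The share of all clusters in which shRBBP4 regions covered more bases is not given here. No test sets these clusters apart from the rest of the list.

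To the right of the CDKN2B start, which is upstream of that gene, H3K9ac regions stood in clusters and singly. The window from 22 to 23 Mb, which includes the CDKN2B regions, held 6 regions in shNT and 11 in shRBBP4. The 43 windows of 1 Mb elsewhere on 9p had medians of 2 and 3. The first cluster, 93.4 kb from the CDKN2B start at 22102727 to 22104394, had 2 shNT regions covering 459 bp at percentiles up to 12.2 and 3 shRBBP4 regions covering 777 bp at percentiles up to 76.5. A cluster from 22117924 to 22118480 held 2 shRBBP4 regions only. Beyond it stood single regions of 116 to 211 bp, of which that at 22211394 to 22211630 was common to both libraries. The shNT-only region from 22204153 to 22204275 stood at percentile 0.889, and the shRBBP4-only regions from 22170496 to 22170611 and from 22238266 to 22238381 at 5.81 and 51.8.

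The far ends of the block held a few regions. On the left, 1 shNT and 2 shRBBP4 regions lay between 20622782 and 20623472, at percentiles up to 12.2 and 32.0. A stronger cluster from 21334089 to 21335682 held the highest-ranked shNT region of the block, from 21334406 to 21335333, at percentile 95.8, and its shRBBP4 counterpart stood at 79.5. On the right, 1 region in each library lay at 23825890 to 23826047 (shNT, percentile 51.2) and 23825858 to 23826263 (shRBBP4, percentile 40.5). The last regions outside the block on the left began at 19380777 in shNT and 19381165 in shRBBP4, and the first on the right at 25677838 and 25677768.

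The longest stretch of the block without a region in either library was not at the named genes but to their right. It ran for 1.59 Mb from 22238382 to 23825857. Elsewhere on 9p, 4 of 397 stretches (4 of the 159 longer than 1 kb) were at least as long, the longest of them 4.98 Mb. The next in the block measured 711 kb, to the left of the cluster at 21334089, and 214 kb, to the right of it, and the stretch around the p16INK4a start came next with 188.6 kb. After it came the stretch right of CDKN2B with 93.5 kb, a length that 56 of the 397 reached. Stretches longer than 100 kb made up 4 of 48 in the block (8.33%) and 54 of 397 elsewhere on 9p (13.6%). The median stretch was 379 bp in the block and 461 bp elsewhere. The difference between these shares was not tested. Stretches that crossed the edges of the block, of 1.24 Mb on the left and 1.85 Mb on the right, were left out of both counts.

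**Figure D3:**
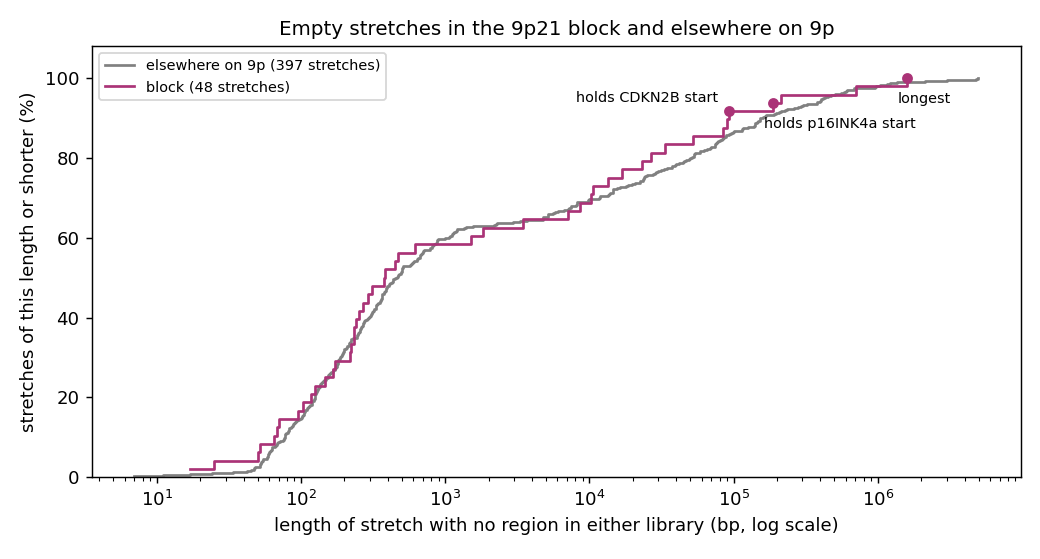
Lengths of the stretches without a region of either library, in bp on a log scale, for the block (48) and elsewhere on 9p (397), with the share of stretches of that length or shorter on the y axis. The marked points of the block are the longest stretch (1.59 Mb) and those that hold the p16INK4a start (188.6 kb) and the CDKN2B start (93.5 kb), and the curves run close together.

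The regions of the block were packed into a core of 0.904 Mb, from 21334089 to 22238381. It held 30 of 32 shNT and 42 of 45 shRBBP4 regions, or 33.2 and 46.4 regions per Mb, while 9p as a whole had 6.23 and 8.89. The core was chosen by its regions, so this is a description. Of 40 windows of 100 kb, 10 held a region in shNT and 11 in shRBBP4, and the fullest, from 21.5 to 21.6 Mb, held 10 and 16. The window from 21 to 22 Mb had 24 regions in shNT and 31 in shRBBP4. Of the 43 windows of 1 Mb elsewhere on 9p, 3 reached as many in each library. Their median was 2 regions in shNT and 3 in shRBBP4, and 19 of them in shNT and 15 in shRBBP4 had none. The 43 windows include those from 39 to 47 Mb, which held at most 1 region in each library. Neither these medians nor the densities per Mb were computed without them. Over 4 Mb, the block's 32 and 45 regions were reached by 3 of 10 other windows of 9p, whose medians were 19.5 and 29.0.

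**Figure D4:**
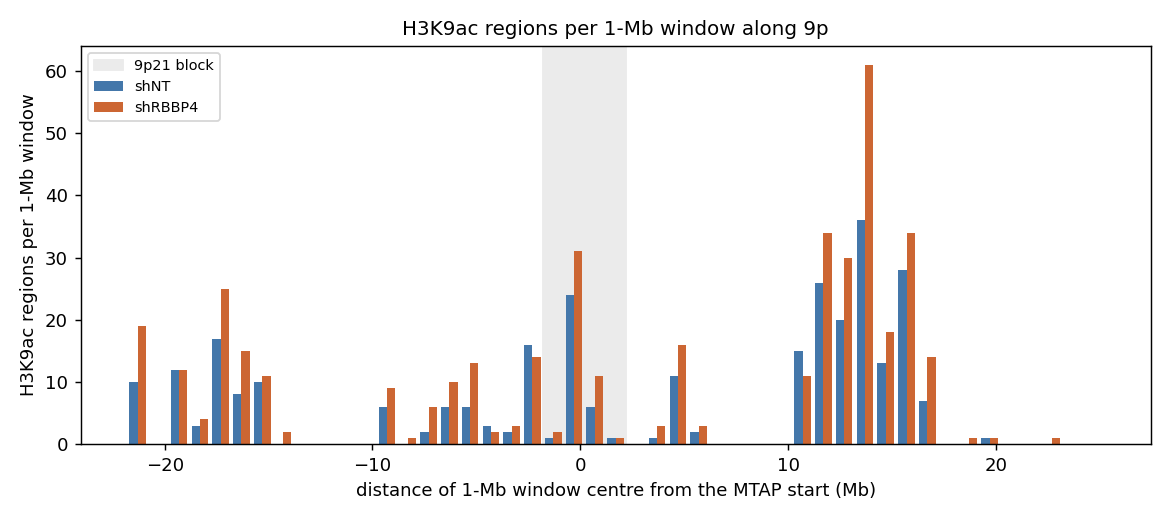
H3K9ac regions per 1-Mb window of 9p in shNT and shRBBP4, with the distance of the window's centre from the MTAP start in Mb on the x axis and the block shaded. The window left of centre in the block, with 24 and 31 regions, stands above all but 3 of the other windows, and the 2 outer windows of the block hold 1 or 2 regions.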

How the data were processed

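H3K9ac ChIP-seq regions of T98G cells were taken from the 2 deposited lists, 1 per shRNA, each with a position, a name and the authors' score, whose scale the files do not state. Each list is that of 1 library, and its track line contains macs2 and PE, per the file headers. Per the submitters' processing notes, which assign no roles, the tools were SICER, Picard, BWA and bcl2fastq 2.15.0 and the builds hg19 and GRCh37. Which caller made the lists, its settings, its use of the inputs and the depth: not given in the sources used here. Starts are counted from 1. The block and gene starts follow a rule set with earlier results of these data known, and so were the lists and tests.

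Regions were counted, merged where at most 1 kb apart and compared by overlap of at least 1 bp, and percentiles rank scores within a list. Intervals are exact (Clopper-Pearson, or conditional for ratios) at 95%. With 1 library per group no p-value was computed. Regions named are those that bound the longest empty stretch, lie nearest to a start, are the 5 highest-scoring or the widest of a library in the block, or reach percentile 90 without a counterpart (there were none). The other clusters of the block were named to account for every member, after their values were seen. Genes of the RB and p53 pathways outside the block were not analysed here, for want of an annotation of the build. Alternatives were the higher-scoring 50% of each list, lists of equal length, joined regions, each list alone, other windows and overlap rules, and 9p up to 39 Mb. The functions were tested on simulated lists. Software was scipy 1.17.1, pandas 2.3.3, numpy 2.4.6 and matplotlib 3.10.9 under Python 3.11.15.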

Additional observations from a re-analysis of the deposited data

How the results depend on the processing

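No paired analysis was possible because there was 1 H3K9ac library per shRNA. The block held 14 shNT and 21 shRBBP4 regions in the higher-scoring 50% of each list and 15 and 20 clusters when regions were joined within 1 kb, fewer by construction. The ratio of shRBBP4 to shNT regions ranged from 0.938 to 1.5 over these settings and lists of equal length, and its interval included 1 in each. The longest empty stretch measured 1.61 Mb in shNT alone. Its rank on 9p, 5 with both lists, was 3 with 9p up to 39 Mb and 4 in shNT alone. Regions stood at 3 starts within 1, 2 and 10 kb, in the higher-scoring 50% and in lists of equal length (an alternative chosen after seeing the data), and at all 4 starts within 50 kb, a window that reaches from the p16INK4a start to the p14ARF regions. Regions with a counterpart made up 40.6% of shNT and 28.9% of shRBBP4 regions with reciprocal overlap of at least 50% and 93.8% and 73.3% within 1 kb. Between the higher-scoring 50% of both lists it was 57.1% for shNT and 38.1% for shRBBP4. With windows of 250 kb in place of 100 kb, the share of the block's windows with a region was 37.5% in both libraries, against 25.0% and 27.5%. As the depth is unknown, no ratio of region numbers can be corrected for it.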

Other observations

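Other parts of 9p also had long stretches without a called H3K9ac region in either library. How well reads can be placed in these stretches was not tested. The longest ran from 7799709 to 12775022 (4.98 Mb) and from 27574280 to 32384898 (4.81 Mb), and 2 of the 10 other windows of 4 Mb, from 8 to 12 Mb and from 28 to 32 Mb, had no region. Next came stretches of 3.04 Mb from 41954615 and of 2.11 Mb from 38682653. The window of 4 Mb with most regions on 9p, from 32 to 36 Mb, held 97 in shNT and 136 in shRBBP4, against 32 and 45 in the block. The windows just beside the block, from 16 to 20 Mb and from 24 to 28 Mb, held 27 and 14 regions in shNT and 32 and 22 in shRBBP4.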
